A study of Mus musculus with 6 samples.

Results

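The 3 Keap1 knockout tumour samples of the series, knockouts 1 to 3, are described here by themselves, out of 6 samples in all; the other 3 are labelled Control and were not compared with them. Members were chosen by the genotype label alone. All 6 are mouse lung samples labelled small cell lung cancer and taken from tumours of a model that the labels call QKO, about 4 months after virus was given, in a study that had screened 18 putative tumour suppressors. The knockout group thus carries the unspelled QKO background and, in addition, inactivation of Keap1. The labels do not spell out QKO, name the virus or the cells it reaches, say how Keap1 was inactivated, give the sex or age of the mice, or state whether the 3 samples came from separate animals. Sex-linked transcripts, given below, place knockout 1 in another animal than knockouts 2 and 3. Whether the latter came from separate animals is not known, so an SD over the 3 libraries need not measure a spread between 3 animals. Messenger RNA was sequenced in read pairs, and bulk tissue was used, so for every cell type below, fewer cells and less RNA per cell cannot be told apart.

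KEAP1 is an adaptor of a ubiquitin ligase that holds the transcription factor NRF2 (gene Nfe2l2) at a low level. Without KEAP1, NRF2 accumulates, enters the nucleus and, with a small MAF partner, binds antioxidant response elements in front of genes for glutathione synthesis, thioredoxin reduction, detoxification and NADPH supply. Small cell lung cancer is usually a neuroendocrine carcinoma defined by loss of Rb1 and Trp53 and driven by lineage factors such as NEUROD1, and rarer forms carry the tuft cell factor POU2F3 or features linked to YAP1.

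The 3 knockout libraries held 21801647, 22786776 and 23759892 reads counted on genes. Levels are given as CPM, reads scaled to a common library total after adjustment by the trimmed mean of M-values (TMM) over these 3 libraries. Between 20038 and 20095 genes had at least 5 reads in a library, mitochondrial transcripts took 0.981% to 1.22% of reads and ribosomal protein genes 5.07% to 5.65%. Of 56980 gene identifiers, 15211 had a mean of at least 1 CPM and were kept. Pearson correlations of log2 CPM across these genes were 0.959 between knockouts 1 and 2, 0.954 between 1 and 3 and 0.976 between 2 and 3. Genes are not independent replicates, so these values are a description of the libraries.

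Most genes stood at like levels in all 3 tumours. The highest and the lowest library differed by a median of 0.36 on the log2 scale, and the SD of log2 CPM over the 3 libraries had a median of 0.19. Of the 15211 genes, 2167 (14.2%) differed by at least 2-fold between the highest and the lowest library and 506 (3.33%) by at least 4-fold. The latter are called varying below, and no test stands behind the word. Just inside and just outside the threshold of 2 on the log2 scale lay values of 2.00012 and 1.99971, so the threshold divides a continuum. Knockout 1 stood apart most often. Of the varying genes, 215 (1.41% of the genes kept) were placed as high in knockout 1, 44 (0.289%) in knockout 2 and 46 (0.302%) in knockout 3. Another 77 (0.506%) were placed as low in knockout 1, 46 (0.302%) in knockout 2 and 78 (0.513%) in knockout 3. A gene was placed by the library across the larger gap, and its other libraries can still differ from each other. Without knockout 1, 126 genes were 4-fold apart, without knockout 2 364 and without knockout 3 301, each count taken over the 2 libraries that remained after scaling and filtering them anew. By pairs over the 15211 genes, 287 were 4-fold apart between knockouts 1 and 2, 346 between 1 and 3 and 135 between 2 and 3.

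**Figure D1:**
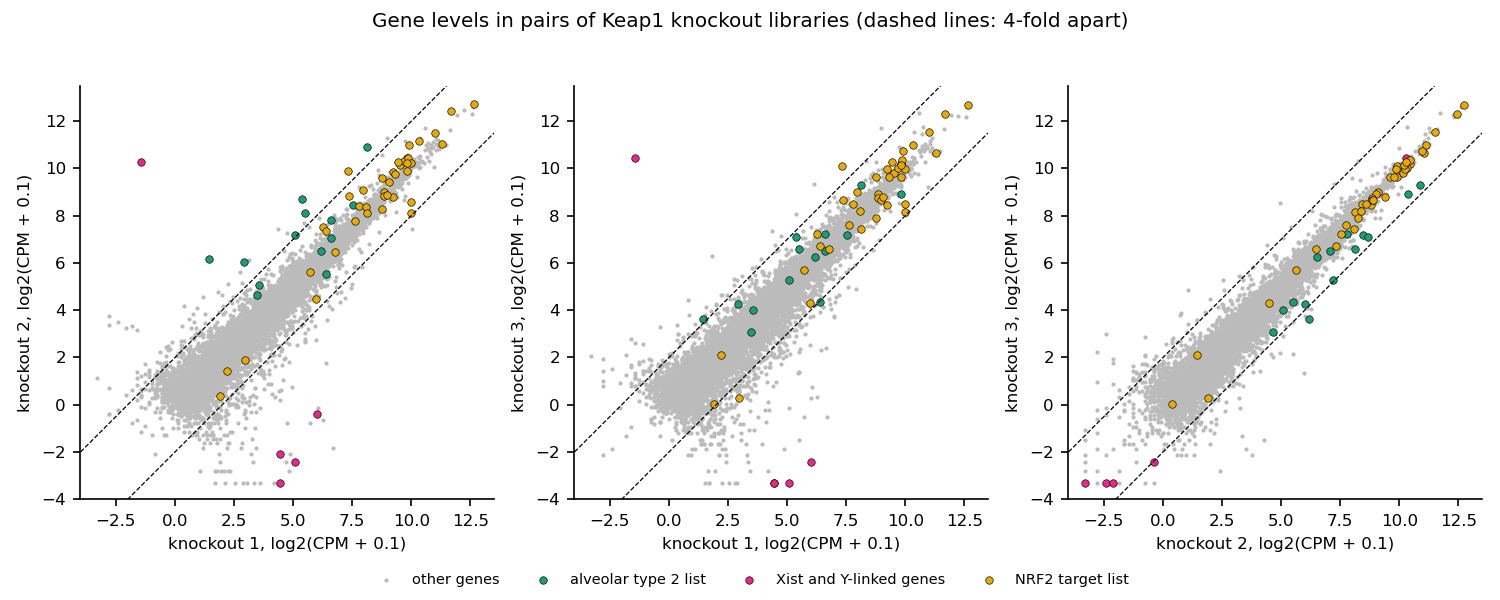
Levels of the 15211 genes kept, as log2(CPM + 0.1) on both axes, for each pair of the 3 Keap1 knockout libraries; each point is a gene, coloured points are members of 3 lists, and dashed lines lie 4-fold from equality. Xist and the Y-linked genes leave the diagonal in both panels with knockout 1, several alveolar type 2 genes lie towards knockout 2, and the NRF2 target genes gather near the top of each panel.

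Transcripts of the sex chromosomes were among the genes of widest range in the 3 tumours. Xist (ENSMUSG00000086503), the RNA that coats the inactive X chromosome of female cells, had 6, 28197 and 32512 reads in knockouts 1 to 3. Knockout 1 was thus nearly without it, and the other libraries held 1251 and 1378 CPM. The Y-linked genes gave the opposite order, with 1425, 15 and 2 reads for the translation factor gene Eif2s3y and 758, 2 and 0 for the helicase gene Ddx3y. The histone demethylase genes Uty and Kdm5d had 488, 0 and 0 and 482, 3 and 0 reads. Knockout 1 carried Y-linked RNA with next to no Xist, and knockouts 2 and 3 carried Xist with next to no Y-linked RNA. The labels give no sex. A single animal does not give both kinds of sample, so the group holds tissue of at least 2 animals, and whether knockouts 2 and 3 came from separate ones cannot be read from these genes.

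X-linked genes as a class were lowest in the library that lacked Xist. Among 356 X-linked genes with a mean of at least 5 CPM, 261 (73.3%) were lowest in knockout 1, against 4055 of 11295 autosomal genes (35.9%) and 36.3% of all genes kept. The median X-linked gene deviated from its own mean over the 3 libraries by -0.24, 0.10 and 0.12 on the log2 scale in knockouts 1 to 3. No autosome had a median deviation outside -0.107 to 0.0786, the lowest being chromosome 4 in knockout 1, where 61.2% of 742 genes were lowest in that library. With the autosomal median taken off, the X-linked median in knockout 1 lay 0.36 below the mean of knockouts 2 and 3 under each of the 4 scalings tried. Kdm6a, an X-linked histone demethylase gene known to escape X inactivation, stood at 33.3, 65.7 and 65.2 CPM. Tmsb4x and the NRF2 target G6pdx, both X-linked and described below, were likewise lowest in knockout 1, and the part of the chromosome in their order was not tested.

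**Figure D2:**
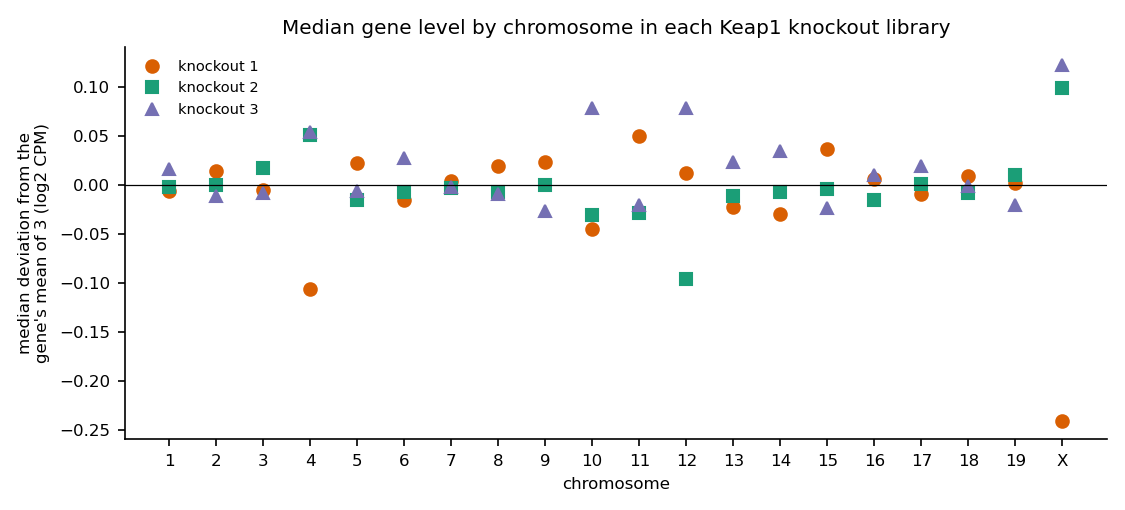
Median deviation of the genes of each chromosome from their mean over the 3 Keap1 knockout libraries, in log2 CPM, for genes with a mean of at least 5 CPM; each symbol is a library. The X chromosome separates knockout 1, at -0.24, from knockouts 2 and 3, at 0.10 and 0.12, and the autosomes stay between -0.107 and 0.0786.

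The most abundant messages mixed NRF2 enzymes with the usual housekeeping transcripts. Gstm1 (ENSMUSG00000058135), a glutathione transferase that couples glutathione to electrophiles, took more reads than any other gene on average over the 3 libraries, at 6486, 6863 and 6614 CPM in knockouts 1 to 3 (6655 ± 192, SD, n = 3). Gclc, the catalytic subunit of the enzyme that limits glutathione synthesis, was the fifth by reads, at 3254, 5506 and 5055 CPM, and was lowest in knockout 1. Txnrd1, the cytosolic thioredoxin reductase, stood at 2065, 2893 and 2984 CPM, again with knockout 1 lowest. Between these lay the elongation factor gene Eef1a1 (6253 ± 53.2 CPM), the mitochondrial oxidase subunit mt-Co1 (5271 ± 796 CPM), the actin-binding peptide gene Tmsb4x (4574 ± 591 CPM) and the MHC class I gene H2-K1 (3162 ± 43.9 CPM), each SD over 3 libraries. An identifier without a symbol in the tables used, ENSMUSG00000119584, was the fourth by reads. The 25 leading genes took 7.01%, 7.58% and 7.85% of the reads, so no library was given over to a few transcripts.

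Other genes among the 25 also encode enzymes that handle foreign or reactive compounds, or store iron. Adh7, an alcohol and retinol dehydrogenase, stood at 1325, 2500.4 and 2967 CPM and the peroxiredoxin gene Prdx6 at 1661, 2145 and 2833 CPM in knockouts 1 to 3, both with knockout 1 lowest. Cyp2a5, a cytochrome P450 of airway and liver, was at 497, 2465 and 3314 CPM and so was the single varying gene among the 25. Knockout 1 held far less of it than the others, and its close relative Cyp2a4 can share its reads. Selenbp1, which encodes a selenium-binding methanethiol oxidase, was at 1702, 1271 and 3426 CPM and was highest in knockout 3. The ferritin heavy chain gene Fth1, an iron store, had 2544, 2083 and 1591 CPM, with knockout 1 highest.

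**Figure D3:**
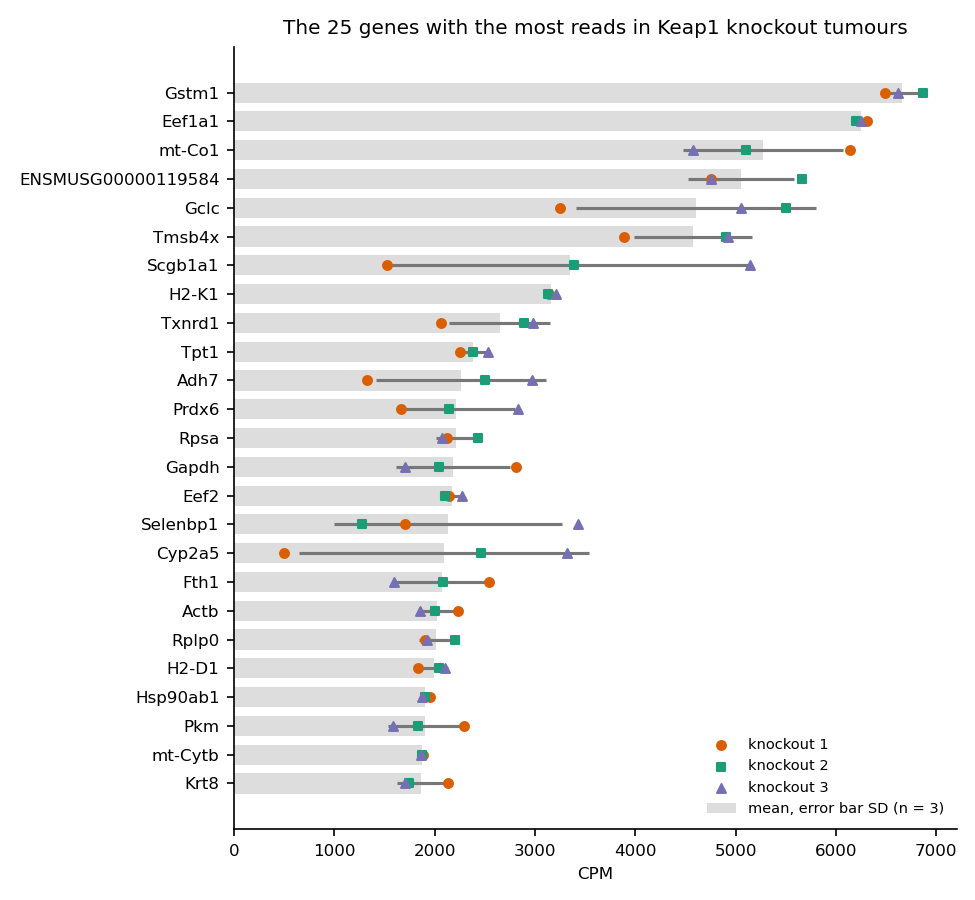
CPM of the 25 genes with the highest mean over the 3 Keap1 knockout libraries; bars are means, error bars the SD over 3 libraries and symbols the libraries. Gstm1 leads at a mean of 6655 ± 192 CPM, and Scgb1a1, Adh7, Selenbp1 and Cyp2a5 spread widest relative to their means.

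Per length, the secretory protein of club cells led by its mean over the 3 libraries, though not in knockout 1. CPM were divided by the length of each gene's merged exons in kilobases for the 15034 genes kept with a length (98.8%). Scgb1a1 (ENSMUSG00000024653), the main secreted protein of airway club cells, reached 3193, 7128 and 10801 CPM per kilobase in knockouts 1 to 3, and Gstm1 4403, 4659.5 and 4490.4. The libraries differed by a wide margin in the former and hardly in the latter. Below them came the ribosomal stalk gene Rplp1 (3519 ± 491 CPM per kilobase), mt-Co1 (3411 ± 515), Tmsb4x (3336 ± 431) and the MHC class I light chain gene B2m (1624 ± 78.0), each SD over 3 libraries. Of the 25 leading genes by reads, 13 were also among the 25 leading per kilobase. Gclc kept a place at 1223 ± 317 CPM per kilobase, and the surfactant gene Sftpc closed the list at 905 ± 826, where a single library, knockout 2, set the mean.

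The NRF2 targets were abundant in each knockout tumour, and the listed genes spread more between the libraries than the typical gene, with a median log2 range of 0.70 against 0.36 for all genes kept. All 41 listed targets were kept, their summed level was 33047, 42455 and 38742 CPM in knockouts 1 to 3, and they took 3.37%, 4.20% and 3.85% of all reads. Of the 41, 15 were among the 100 genes with the most reads, 10 (24.4%) differed by at least 2-fold, against 14.2% of all genes kept, and 2 (4.88%) varied 4-fold, against 3.33%. The target genes were chosen with their level in these tumours known, so the counts of abundant members are a description. For 23 of the 41, knockout 1 was the lowest library, against 36.3% of all genes, and for 22 knockout 2 was the highest, against 28.5%.

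Glutathione supply was lowest in knockout 1 at each step named. The cystine transporter gene Slc7a11, which brings in the limiting precursor, stood at 944, 2021 and 1710.0 CPM. The modifier subunit Gclm, partner of Gclc, was at 910.1, 1338 and 1183 CPM and the glutathione reductase gene Gsr at 914, 1384 and 1169 CPM. Each of these was lowest in knockout 1 and highest in knockout 2. The thioredoxin side had the same low library, with 683, 1229.7 and 1220.5 CPM for thioredoxin (Txn1) and 1295, 2262 and 2011 CPM for the peroxiredoxin gene Prdx1. Prdx1 lies on chromosome 4, the autosome with the lowest median in knockout 1, and the part of the chromosome in its order was not tested. Sulfiredoxin (Srxn1), which repairs overoxidized peroxiredoxins, broke the order at 525, 682 and 437 CPM, with knockout 3 lowest. In NADPH supply, G6pdx, which opens the pentose phosphate route, stood at 436, 774 and 794 CPM and the next dehydrogenase, Pgd, at 936, 1392 and 1295 CPM, again lowest in knockout 1. Malic enzyme (Me1) was close in the 3 libraries, at 509, 475 and 400.2 CPM.

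Detoxifying enzymes split into genes low and genes high in knockout 1. The quinone reductase gene Nqo1, a common readout of NRF2, stood at 834, 1283 and 1040.2 CPM and the class alpha transferase genes Gsta3 and Gsta2 at 594, 916 and 1001 and 163, 461 and 411 CPM. Knockout 1 was the lowest library for all of them. The carboxylesterase gene Ces1g, at 160.2, 948 and 1098 CPM, was one of the 2 varying targets, and the efflux pump gene Abcc1 stood at 249, 541 and 507 CPM. Knockout 1 was instead the highest library for the class pi transferase gene Gstp1, at 1009, 384 and 362 CPM, for its neighbour copy Gstp2, at 61.7, 22.2 and 19.8 CPM, and for the aldo-keto reductase gene Akr1b8, at 1009.7, 277 and 283 CPM. Knockout 1 held over 2-fold the level of either other library for each of these genes. The second varying target, the export pump gene Abcc2, was highest in knockout 1 at 7.75, 3.59 and 1.10 CPM, and catalase (Cat) and the carbonyl reductase gene Cbr1 had the same order at 435, 309 and 241 and 593, 449 and 347 CPM. Glutathione transferase, carboxylesterase and carbonyl reductase genes come as near copies, and the handling of reads that match more than one gene is not stated in the sources used here, so levels of single copies are uncertain.

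The core of the antioxidant response element, TGACNNNGC on either strand, was looked up in the 250 bases before the annotated starts of these genes, to show the letters by which NRF2 is known to recognise its targets. Windows came from RefSeq (build GRCm38.p6), where 36 of the 41 targets had one. The motif occurred in 7 of these 36 genes (19.4%), in 3112 of all 27025 genes with a window (11.5%) and in 1530 of 11014 such genes among those kept (13.9%). It is a short motif, so a match is a description of the letters and not a bound site, and elements farther from the start are not covered. For the 6 of the 7 genes with the highest mean CPM the bases around the match are shown 5′ to 3′ along the gene's own strand, with the match in capitals.
Txnrd1, chr10:82859088-82859148, plus strand: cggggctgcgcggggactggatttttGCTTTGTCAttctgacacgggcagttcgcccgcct
Prdx1, chr4:116685440-116685500, plus strand: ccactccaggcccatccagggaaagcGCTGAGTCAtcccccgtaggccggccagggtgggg
Gclm, chr3:122245397-122245457, plus strand: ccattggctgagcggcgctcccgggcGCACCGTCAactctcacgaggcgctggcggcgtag
Gsta3, chr1:21240438-21240498, plus strand: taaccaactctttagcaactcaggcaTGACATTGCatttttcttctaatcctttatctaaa
Ugdh, chr5:65435902-65435962, minus strand: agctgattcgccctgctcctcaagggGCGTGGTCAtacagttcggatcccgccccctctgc
G6pdx, chrX:74428903-74428963, minus strand: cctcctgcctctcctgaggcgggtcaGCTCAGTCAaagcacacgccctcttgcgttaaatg
In Gsta3 the match reads along the gene's strand, and in the other 5 it lies on the opposite strand. Levels of Txnrd1, Prdx1, Gclm, Gsta3 and G6pdx are given above, and Ugdh, which makes the sugar donor for glucuronidation, stood at 631, 869.7 and 797 CPM with knockout 1 lowest.

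The regulators of the pathway hardly differed between the tumours. All 12 listed regulators were kept and none differed by 2-fold, against 14.2% of all genes kept, and their median log2 range was 0.20. Nfe2l2 stood at 151, 153 and 161 CPM and Keap1 itself at 65.2, 90.2 and 77.1 CPM in knockouts 1 to 3. Keap1 RNA was thus present in every knockout library, and since disrupting a gene need not lower the amount of its transcript, this level does not check the genotype label. Sqstm1, the autophagy receptor that competes for KEAP1 and is itself an NRF2 target, took the most reads of the regulators, at 612, 755 and 615 CPM. The small MAF genes Mafg and Maff stood at 171, 177 and 172 and 45.7, 62.0 and 58.8 CPM.

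All 3 tumours were epithelial and carried lung lineage factors. The 18 pan-epithelial markers were all kept and none varied 4-fold. The share over all genes kept was 3.33%, so that count by itself does not set the list apart. The simple keratin genes Krt8 and Krt18 stood at 2129, 1747 and 1699 and 1218, 1131 and 1021 CPM in knockouts 1 to 3. E-cadherin (Cdh1) stood at 881, 803 and 734 CPM and Epcam at 432, 416 and 425 CPM. The libraries were close for each of these, with knockout 1 slightly higher in the keratins. Among 12 lung lineage factors, Nkx2-1, the master factor of lung and thyroid epithelium, was at 409, 350.0 and 385 CPM, Foxa1 at 252, 191 and 223 CPM and Gata6 at 90.0, 97.4 and 94.5 CPM. Etv5, a factor that sustains alveolar type 2 cells, was the single varying member, at 16.4, 45.7 and 11.1 CPM, and was highest in knockout 2.

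The neuroendocrine factor genes Insm1 and Neurod1 were at or near 0, although small cell lung cancer is usually neuroendocrine. Insm1 had 2, 0 and 0 reads in knockouts 1 to 3 and Neurod1 0, 0 and 0. Of the 21 neuroendocrine genes listed, 7 were kept, against 15211 of all 56980 identifiers, so this count by itself does not set the list apart. The granule protein gene Chga had 2, 8 and 0 reads, the synaptic vesicle gene Syp 10, 12 and 19, and Resp18 and Neurod1 had none in any library. At these depths a count of 0 allows a level of up to 3 reads, or 0.135, 0.133 and 0.127 CPM in knockouts 1 to 3, a limit that covers counting error only. On these counts Insm1, Neurod1, Chga and Syp did not show the neuroendocrine identity usual for the label, which also covers rarer forms. The samples are called Keap1 knockout tumours throughout.

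A trace of neuroendocrine RNA was left, most of it in knockout 1. Calca, which encodes the calcitonin and CGRP peptides of airway neuroendocrine cells, stood at 112, 31.5 and 19.3 CPM, the adhesion gene Ncam1 at 47.2, 13.2 and 5.04 CPM and the aromatic amino acid decarboxylase gene Ddc at 22.9, 3.11 and 1.82 CPM. All varied 4-fold, with knockout 1 highest. Among the 4 varying members the exception was Nkx2-2, a factor of endocrine lineages, at 1.71, 1.55 and 13.9 CPM, where knockout 3 was highest. Of the 7 members kept, 4 varied (57.1%), against 3.33% of all genes kept. A low gene that passes the level filter through 1 library has to differ and to be highest there. Counts of varying members and of the highest library, here and for the other low lists below, thus describe the members kept and support nothing.

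Markers of other recognised subtypes were near 0 or present in all 3 tumours. The tuft cell factor gene Pou2f3 had 3, 1 and 1 reads and the subtype factor gene Atoh1 0, 0 and 0. Yap1, the coactivator linked to tumours without neuroendocrine features, stood at 89.9, 88.9 and 79.5 CPM. The 12 genes of that list summed to 1904, 1819 and 1905 CPM. None varied 4-fold, which by itself does not set the list apart, since 3.33% of all genes kept did. Within the list, the caveolin gene Cav1 was lowest in knockout 1 and highest in knockout 3, at 109, 209 and 379 CPM. Among the MYC family, Myc and Mycl were both present, at 106, 94.2 and 105 and 90.9, 85.5 and 106 CPM, whereas Mycn stood at 2.43, 1.24 and 0.212 CPM. The chromatin factor gene Nfib, often gained in such tumours, was at 122, 115 and 116 CPM.

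Eomes was a constant feature of the group. This T-box factor gene (ENSMUSG00000032446), known from early endoderm and from natural killer and cytotoxic T cells, stood at 864, 1008 and 960.4 CPM in knockouts 1 to 3 (944 ± 73.6, SD, n = 3), within the 100 genes with the most reads. Cytotoxic cell markers did not come with it. Of the 12 genes on that list, Eomes took 99.2% of the summed CPM, the receptor gene Ncr1 had 0, 0 and 0 reads and the granule genes Prf1 and Gzmb 2, 20 and 4 and 20, 25 and 6. The T cell list, which does not hold Eomes, summed to 43.7, 34.1 and 18.5 CPM, with 5, 19 and 17 reads for the receptor chain gene Cd3e. Of the endoderm and liver factors beside it, Sox17 was at 23.0, 58.7 and 50.7 CPM, while Pdx1 and Cdx2 had no read in any library.

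Tumour suppressor transcripts had a median log2 range of 0.28 over the 18 listed genes, against 0.36 for all genes kept. None varied 4-fold, against 3.33% of all genes, and 1 (5.56%), the phosphatase gene Ptprd at 2.21, 5.86 and 3.18 CPM, differed by at least 2-fold, against 14.2%. Rb1 stood at 55.6, 57.4 and 72.4 CPM, Trp53 at 30.9, 23.9 and 25.8 CPM and Rbl2 at 10.04, 11.4 and 12.9 CPM in knockouts 1 to 3. Transcripts of all 3 were thus still counted, and reads of disrupted alleles or of other cells in the tissue cannot be told apart at this level. Cdkn2a, a locus known to be raised when RB1 is lost, took the most reads of the list, at 478, 583 and 603 CPM.

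Airway and alveolar programs were among the 13 of 59 lists whose summed level differed by at least 2-fold between the tumours. The 16 listed club cell genes summed to 3789.8, 6509.8 and 7764 CPM, a ratio of 2.05 between the highest and the lowest library. With library totals as the scaling this ratio was 1.997, just below 2-fold. Scgb1a1 alone made up 55.7% of the summed level. Scgb1a1 stood at 1519.9, 3393 and 5141 CPM in knockouts 1 to 3. Not all members shared its order: the retinal dehydrogenase gene Aldh1a1 was at 655, 1231 and 1244 CPM, the carbonyl reductase gene Cbr2 peaked in knockout 2 at 221, 589 and 242 CPM, and the epithelial defence gene Bpifa1 was highest in knockout 1 at 101, 16.7 and 5.21 CPM. The P450 gene Cyp2f2, a classic club cell marker, was even at 209, 232 and 240.3 CPM. Of the 14 members kept, 9 (64.3%) differed by at least 2-fold, against 14.2% of all genes kept, in more than one order. The single member that varied 4-fold was Bpifa1.

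Surfactant genes marked knockout 2. Surfactant protein C (Sftpc), the defining product of alveolar type 2 cells, stood at 280.4, 1902 and 626 CPM, and Sftpa1 at 41.7, 413 and 138 CPM in knockouts 1 to 3. The lysosomal protein gene Lamp3 was at 7.39, 65.0 and 19.1 CPM, the phosphate transporter gene Slc34a2 at 45.4, 277 and 95.2 CPM and the lysozyme gene Lyz1 at 2.61, 72.3 and 12.3 CPM. Knockout 2 was highest and knockout 1 lowest for each of these 5. Of the 14 listed genes, 13 were highest in knockout 2 and 7 varied 4-fold, against 28.5% and 3.33% of all genes kept. The calcium-binding protein gene S100g was the exception, at 83.4, 45.6 and 20.3 CPM. Summed levels were 1886, 5104 and 1918 CPM, and Sftpb, which club cells also make, was lowest in knockout 3, at 916, 1322 and 482 CPM. The alveolar type 1 list had the same high library for 9 of its 12 genes, among them the receptor gene Ager at 107, 261 and 127 CPM and Pdpn at 5.22, 19.7 and 9.50 CPM. The ciliated cell list stayed low, at summed levels of 113, 135 and 86.7 CPM, with its master factor Foxj1 at 15.0, 17.5 and 10.9 CPM.

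**Figure D4:**
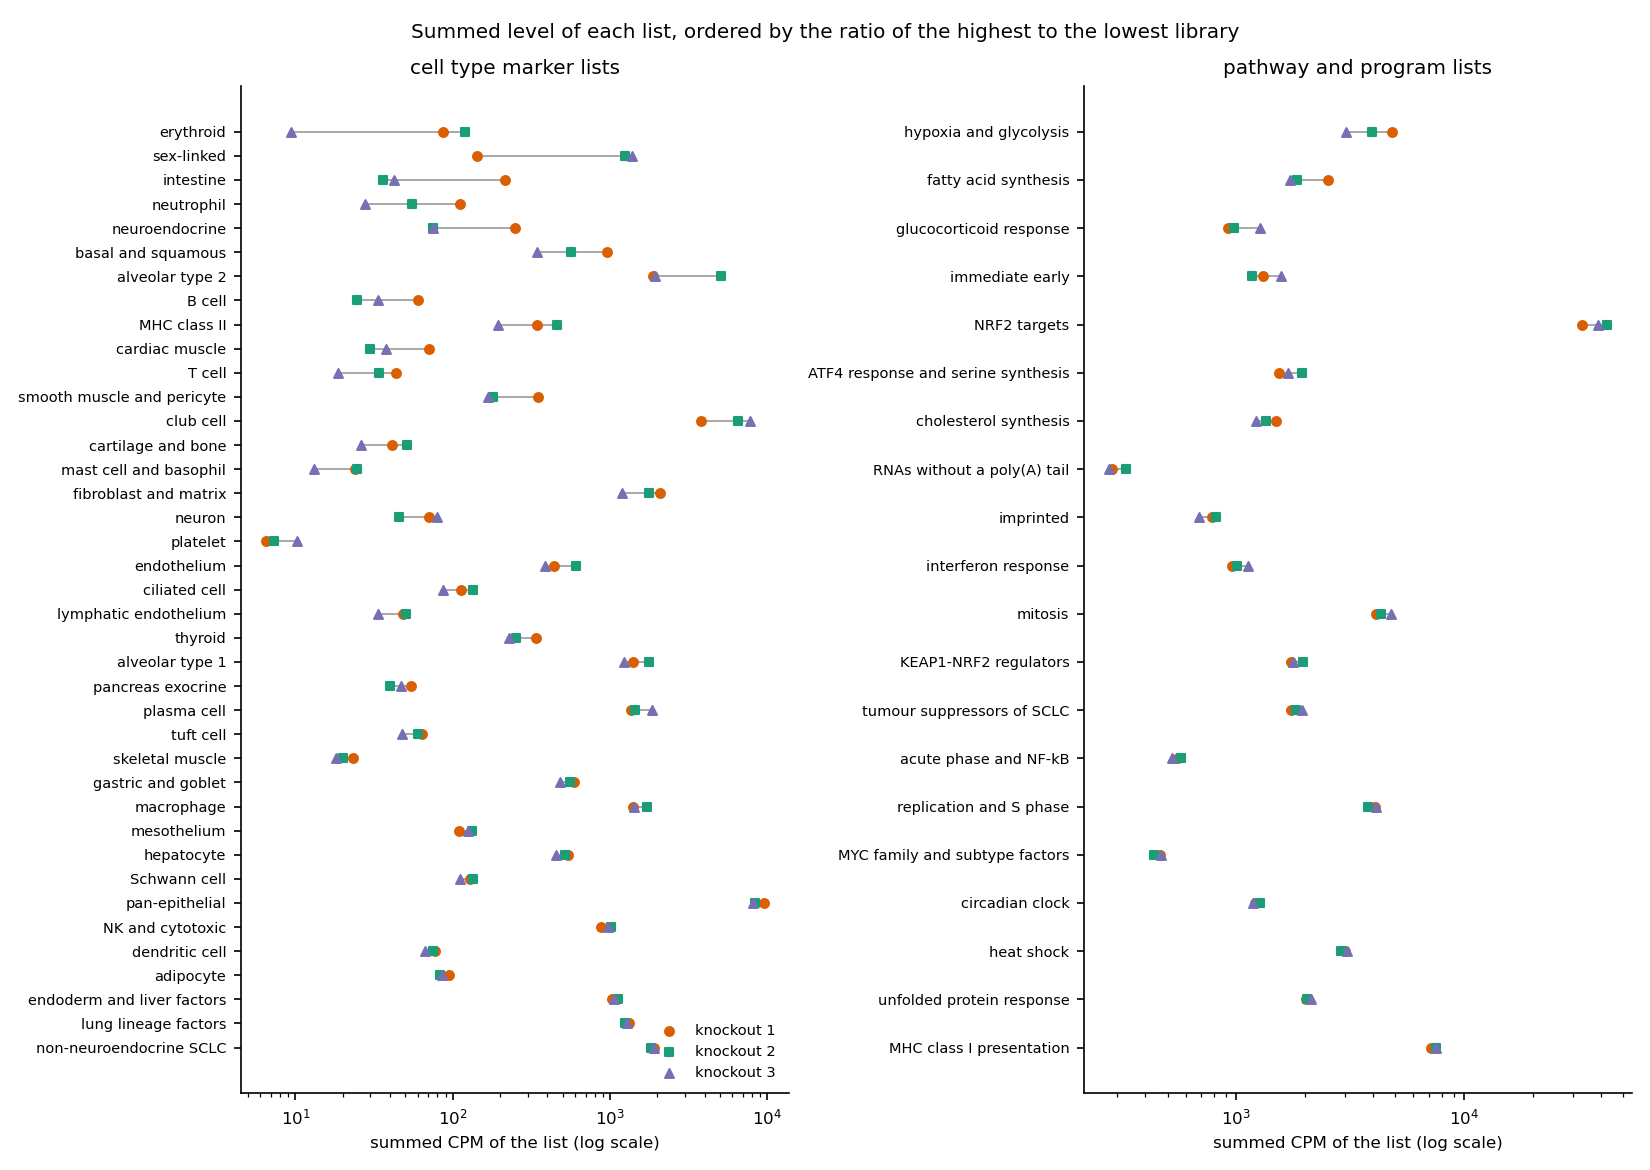
Summed CPM of each of the 59 lists in each Keap1 knockout library on log axes, ordered by the ratio of the highest to the lowest library; symbols are libraries and the line joins the extremes. The erythroid, sex-linked and intestine lists spread widest, and the pan-epithelial, lung lineage and cell cycle lists show symbols that nearly coincide.

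Several genes of foregut and intestinal epithelium were highest in knockout 1, some of them nearly missing from the others. Krt20, a keratin of intestinal and urothelial lining, stood at 102, 0.177 and 0.593 CPM in knockouts 1 to 3, and the endoderm factor gene Onecut2 at 64.1, 0.621 and 1.10 CPM. The galectin gene Lgals4 was at 67.6, 24.2 and 24.8 CPM and the goblet and crypt gene Olfm4 had 237, 4 and 1 reads. In each, knockout 1 lay above both other libraries. The intestine list summed to 215, 36.2 and 42.2 CPM, a ratio of 5.95, with the liver-intestine cadherin gene Cdh17 at 59, 0 and 4 reads. Not all its members shared this order. Of its 7 genes kept, 5 were highest in knockout 1, against 35.8% of all genes kept, and 2 were lowest there, against 36.3%. Knockouts 2 and 3 were each highest for 1, against 28.5% and 35.7%. Low members such as Olfm4 passed the level filter through knockout 1, so these counts describe the members kept. Hnf4a, the factor that drives such programs, was highest in knockout 1 and lowest in knockout 3, at 34.5, 20.9 and 8.73 CPM, whereas the intestinal master factor gene Cdx2 had no read. The aspartic protease gene Ctse, of gastric surface cells, stood at 45.4, 8.08 and 4.58 CPM and Cym, a gene for the related protease chymosin, at 1045, 171 and 259.7 CPM. The gastric and goblet list as a whole differed little, with summed levels of 594, 554 and 479 CPM, of which the mucin gene Muc1 gave 85.7%. Of its 11 genes kept, 6 were highest in knockout 1, 4 in knockout 2 and 1 in knockout 3. The shares of all genes kept were 35.8%, 28.5% and 35.7%. Of the leading genes of this pattern, the glucuronosyltransferase gene Ugt2b35 had 756, 2 and 19 reads, the serpin gene Serpina3j 407, 0 and 1 and the tetraspanin-like gene Tm4sf4 638, 3 and 4; Ugt2b and Serpina3 genes come as near copies.

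Knockout 1 also held a basal and barrier trace. The basal keratin gene Krt14 stood at 52.9, 0.488 and 0.593 CPM, and the basal factor gene Trp63 had 54, 3 and 2 reads in knockouts 1 to 3. The desmosome gene Dsc3 was at 15.2, 1.73 and 0.212 CPM and Krt5 at 4.23, 3.82 and 0.212 CPM. These levels were low even in the highest library. The cornified envelope gene Sprr1a took far more reads, at 475, 260.1 and 124 CPM, with knockout 3 lowest. Of the 11 genes kept from the list, 10 were highest in knockout 1, against 35.8% of all genes kept. Low members such as Krt14 passed the level filter through knockout 1, so this count describes the members kept. The oxidase gene Duox2, which makes hydrogen peroxide at mucosal surfaces, stood at 243, 57.1 and 30.1 CPM, and the gut lectin gene Reg3g at 82.8, 3.33 and 15.3 CPM. The peptide hormone gene Pyy was at 65.4, 0.799 and 1.57 CPM.

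Knockout 3 was set apart by a small group of genes of another kind. Cyp2b10, a P450 gene induced by xenobiotics through the receptor CAR, stood at 70.3, 151 and 651 CPM in knockouts 1 to 3. Both subunits of the ATP-sensitive potassium channel of insulin-secreting cells were high there as well, Abcc8 at 22.2, 20.9 and 108 CPM and Kcnj11 at 7.34, 5.77 and 39.2 CPM. With Nkx2-2, given above, these made 3 genes known from endocrine cells, without Insm1 or Chga. The neuroendocrine list did not share this order. Of its 7 genes kept, 1 was highest in knockout 3, against 35.7% of all genes kept, and 4 were lowest there, against 34.1%. Calca, Ncam1 and Ddc were among those lowest in knockout 3. The coagulation starter tissue factor (F3) stood at 327, 306 and 1284 CPM, and the secreted protein gene Vwce at 41.4, 104 and 269 CPM. Knockout 3 held over 2-fold the level of either other library for Cyp2b10, Abcc8, Kcnj11, Nkx2-2, F3 and Vwce. The glucocorticoid response list was highest in knockout 3 for 9 of 10 genes, against 35.7% of all genes kept, with the factor gene Zbtb16 at 8.51, 9.32 and 43.1 CPM and the cochaperone gene Fkbp5 at 160.1, 114 and 255 CPM.

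Other leading genes followed none of these programs. Tdo2, which starts tryptophan breakdown and is best known from liver, stood at 20.1, 174 and 164 CPM in knockouts 1 to 3 and was low in knockout 1. The chitinase gene Chia1 had 27, 409 and 188 reads and the zinc finger gene Zfp984 5, 201 and 160. The genes lowest in knockout 2 included the RNA-binding protein gene Rbm44, with 566, 2 and 188 reads, and the urothelial gene Upk3a, with 502, 32 and 147. The integrin gene Itga2, a collagen receptor, was lowest in knockout 3 at 127, 64.6 and 13.3 CPM.

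**Figure D5:**
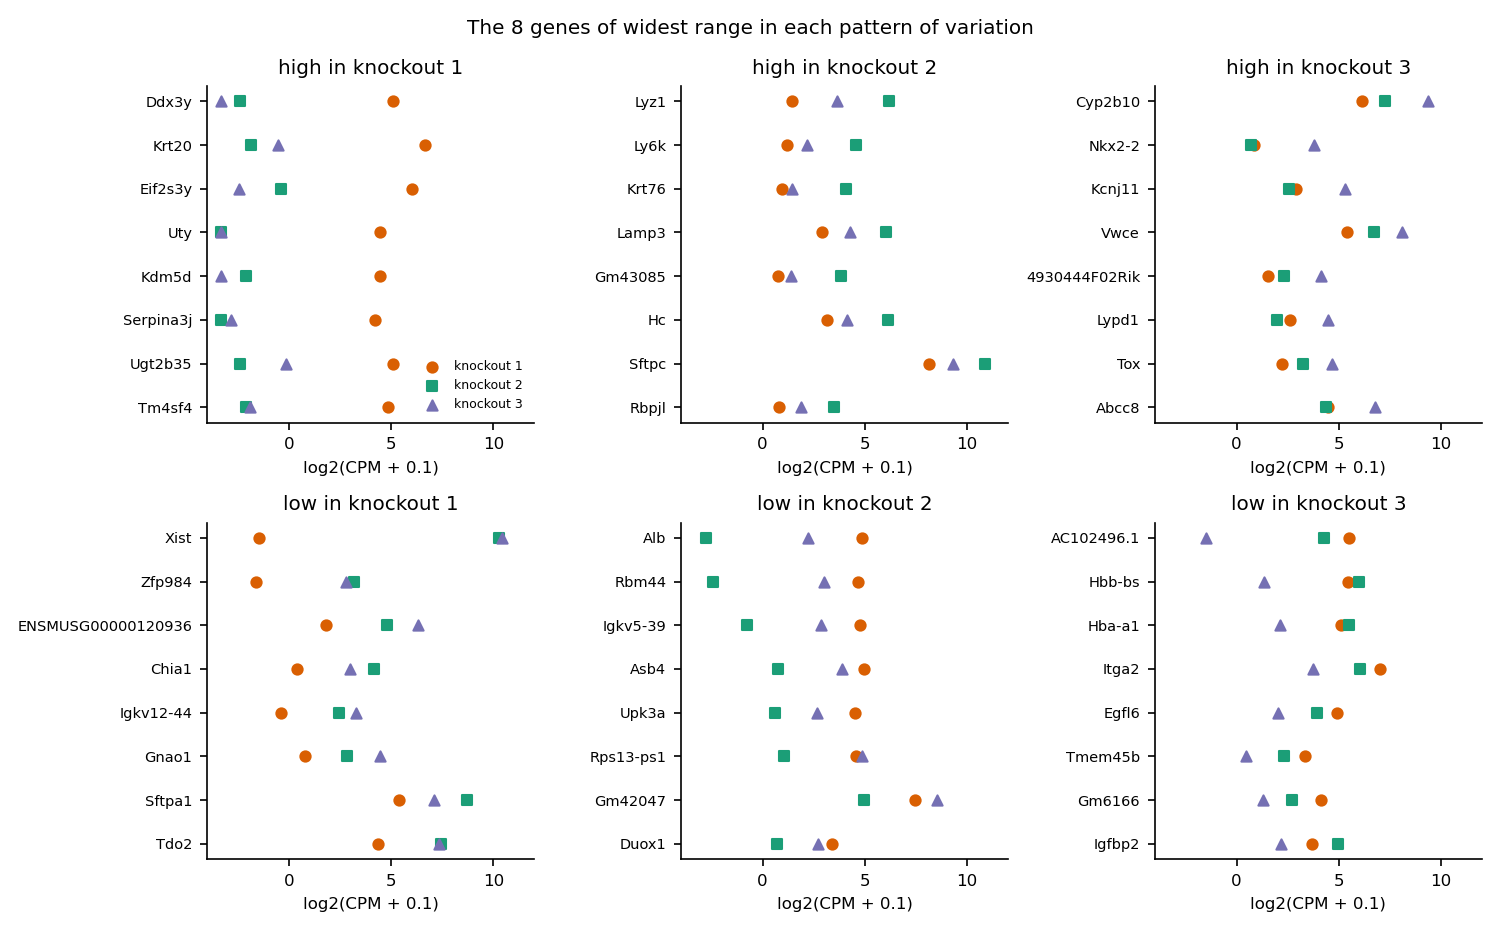
Levels, as log2(CPM + 0.1), of the 8 genes of widest range in each of the 6 patterns, among genes with a mean of at least 5 CPM; symbols are the 3 Keap1 knockout libraries. Knockout 1 leads in the panel with Krt20 and the Y-linked genes, knockout 2 in that with Sftpc and Lyz1, and knockout 3 in that with Cyp2b10 and Abcc8.

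Traces of other tissues were small and uneven. Liver-made plasma protein genes were highest in knockout 1: albumin (Alb) had 636, 1 and 109 reads in knockouts 1 to 3 and the alpha-1-microglobulin gene Ambp 184, 0 and 6. The fibrinogen chain genes Fga and Fgb had 270, 18 and 56 and 84, 1 and 1 reads. Of the 13 hepatocyte genes kept, 9 varied 4-fold and 11 were highest in knockout 1, against 3.33% and 35.8% of all genes kept. Low members such as Ambp and Fgb passed the level filter through knockout 1, so both counts describe the members kept and support nothing. Transferrin (Trf) and hemopexin (Hpx), which tissues other than liver also make, carried most of the summed level and were more even, at 195, 170.3 and 111 and 189.8, 135 and 139 CPM. Apolipoprotein genes of hepatocytes stayed near 0, with 14, 1 and 3 reads for Apoa1 and 6, 1 and 6 for Apob.

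Of 6 heart muscle genes kept, 5 were likewise highest in knockout 1, against 35.8% of all genes kept. The cardiac myosin gene Myh6 stood at 21.3, 4.17 and 5.30 CPM and cardiac troponin T (Tnnt2) at 17.3, 3.46 and 3.82 CPM in knockouts 1 to 3. Troponin I (Tnni3) had another order, at 13.6, 16.2 and 23.4 CPM, and the ventricular genes Myl2 and Myl3 had 0, 0 and 0 and 0, 0 and 1 reads. Skeletal muscle genes were low in all 3 tumours, with summed levels of 23.3, 20.2 and 18.0 CPM. The adipocyte list summed to 94.9, 82.8 and 86.1 CPM, most of it from the lipase gene Lipe, at 50.9, 67.2 and 65.1 CPM, and 4 of its 6 genes kept were highest in knockout 1. Adiponectin (Adipoq) had 22, 0 and 6 reads and adipsin (Cfd) stood at 9.28, 0.133 and 3.35 CPM. The thyroid list was carried by the iodide transporter gene Slc5a5, at 85.7, 161 and 143 CPM, and by Duox2, with thyroglobulin (Tg) at 0, 12 and 8 reads.

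Red cell RNA was nearly missing from knockout 3. The beta globin gene Hbb-bs stood at 44.3, 62.9 and 2.42 CPM and the alpha globin gene Hba-a1 at 34.5, 44.9 and 4.28 CPM in knockouts 1 to 3, and the erythroid list summed to 86.9, 120.2 and 9.37 CPM. Globin copies can share reads. Endothelial genes did not follow the globins exactly: 15 of 18 were highest in knockout 2 and 13 lowest in knockout 3, against 28.5% and 34.1% of all genes kept, with Pecam1 at 40.0, 54.7 and 29.0 CPM and Cdh5 at 41.0, 46.8 and 28.4 CPM. Their summed levels spread over a ratio of 1.57, against 12.8 for the erythroid list.

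Of 18 fibroblast and matrix genes, 11 were highest in knockout 1 and 6 in knockout 2, against 35.8% and 28.5% of all genes kept, and 12 were lowest in knockout 3, against 34.1%. The collagen gene Col1a1 stood at 393, 159 and 92.7 CPM and Col3a1 at 266, 188 and 116 CPM in knockouts 1 to 3. Of 13 pericyte and smooth muscle genes kept, 9 were highest in knockout 1, with 85.2, 20.9 and 23.4 CPM for Rgs5, 62.4, 27.9 and 21.1 CPM for the receptor gene Pdgfrb and 62.4, 27.2 and 18.9 CPM for the actin gene Acta2. Summed levels were 2082, 1775 and 1197 CPM for fibroblast and matrix genes and 348, 181 and 167 CPM for pericytes and smooth muscle. Inmt, a methyltransferase of lung fibroblasts, was among those highest in knockout 2, at 44.1, 205 and 103 CPM. Among 8 mesothelial genes, 7 were lowest in knockout 1, against 36.3% of all genes kept, and their summed level differed little, by a ratio of 1.21.

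Immune RNA was modest and differed by class. None of 16 macrophage genes varied 4-fold and 3 (18.8%) differed by at least 2-fold, against 3.33% and 14.2% of all genes kept, so their shares lay near those of all genes. The complement genes C1qa and C1qb stood at 46.0, 31.4 and 38.6 and 39.0, 26.8 and 30.8 CPM in knockouts 1 to 3. Lyz2, which alveolar type 2 cells also express, was highest in knockout 2 at 383, 973 and 478 CPM, the library with the most surfactant RNA. MHC class II genes were highest in knockout 2 and lowest in knockout 3 for all 7 listed, against 28.5% and 34.1% of all genes kept. The invariant chain gene Cd74 stood at 150.3, 190.4 and 74.0 CPM and H2-Aa at 58.8, 89.3 and 31.3 CPM. T cell genes were low, with 5, 19 and 17 reads for Cd3e, 23, 24 and 13 for Cd4 and 18, 37 and 18 for Cd8a. The neutrophil list summed to 111, 55.3 and 27.6 CPM, but lactoferrin (Ltf), which glandular epithelium also makes, gave 77.5% of it, and S100a8 stood at 1.35, 1.02 and 2.93 CPM.

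Antibody genes differed widely. Of 69 immunoglobulin genes kept, 39 (56.5%) varied 4-fold, against 3.33% of all genes kept, and these made 39 of the 506 varying genes. The IgA heavy chain gene Igha stood at 513, 784 and 1018 CPM and the joining chain gene Jchain, which links secreted IgA, at 139.9, 181 and 252 CPM in knockouts 1 to 3. The IgG classes were instead highest in knockout 1, with 131, 27.5 and 20.0 CPM for Ighg2c, 61.8, 6.61 and 5.64 CPM for Ighg2b and 28.3, 3.37 and 4.66 CPM for Ighg1. Knockout 1 thus had the least IgA and the most IgG transcripts. The kappa constant gene Igkc, which both classes use, was even at 443, 399.8 and 488 CPM. Single variable segments were high in single libraries, such as Igkv5-39 with 599, 11 and 169 reads and Igkv12-44 with 15, 121 and 228. Such segments are near copies of each other, so reads may be shared among them.

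Metabolic programs shifted in small steps. In hypoxia and glycolysis, 15 of 18 genes kept were highest in knockout 1 and 16 lowest in knockout 3, against 35.8% and 34.1% of all genes kept. None varied 4-fold, against 3.33% of all genes kept. Lactate dehydrogenase (Ldha) stood at 1481, 1217 and 859.7 CPM, enolase (Eno1) at 1326, 1070.2 and 887 CPM and the oxygen sensor gene Egln3 at 71.7, 36.0 and 18.6 CPM in knockouts 1 to 3. In fatty acid synthesis, 9 of 10 genes were highest in knockout 1, with the desaturase gene Scd1 at 649, 495 and 296 CPM. ATF4 response and serine synthesis genes were highest in knockout 2 for 16 of 20, against 28.5%, with asparagine synthetase (Asns) at 62.8, 118 and 90.2 CPM and the methylene-tetrahydrofolate dehydrogenase gene Mthfd2 at 35.9, 63.2 and 45.9 CPM. Slc7a3, an X-linked cationic amino acid transporter gene, was its varying member at 3.56, 14.9 and 9.54 CPM.

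Proliferation and proteostasis were held in common. The proliferation marker Mki67 stood at 833, 751 and 860.3 CPM and the topoisomerase gene Top2a at 717, 662 and 759 CPM in knockouts 1 to 3. None of the 18 replication genes or 18 mitosis genes differed by 2-fold, against 14.2% of all genes kept. The mitosis genes nevertheless leaned one way, with 16 of 18 highest in knockout 3, against 35.7% of all genes kept, and summed levels of 4099, 4343 and 4783 CPM. Heat shock genes, the unfolded protein response and MHC class I presentation likewise had no member that differed by 2-fold, with the chaperone genes Hspa8 at 1613, 1434 and 1487 CPM and Hspa5 at 459, 462 and 450.0 CPM. Of 17 circadian clock genes, 3 (17.6%) differed by at least 2-fold, near the 14.2% of all genes kept, among them Nr1d1, which swings widely over the day, at 55.8, 82.5 and 33.8 CPM, while Per1 stood at 159, 159 and 212 CPM. Immediate early genes, which respond fast to stimuli and handling, were highest in knockout 3 for 13 of 16, against 35.7%, with Fos at 57.3, 42.0 and 66.8 CPM, and 11 were lowest in knockout 2, against 29.6%.

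Imprinted genes differed more than these. The maternally expressed RNA H19 stood at 151, 308 and 232 CPM and the paternally expressed genes Mest and Peg3 at 151, 49.3 and 41.5 and 65.8, 22.6 and 22.8 CPM in knockouts 1 to 3. Knockout 1 was lowest for H19 and highest for Mest and Peg3, and whether the order of imprinted genes follows their parental origin was not tested. Of 11 imprinted genes kept, 7 were highest in knockout 1 and 4 in knockout 2, against 35.8% and 28.5% of all genes kept. Among the same 11, 6 differed by at least 2-fold, against 14.2% of all genes kept, and none by 4-fold, against 3.33%. Igf2, which shares its control region with H19, had 0, 3 and 0 reads. Of 20 interferon response genes, 3 (15%) differed by at least 2-fold, near the share of all genes, and 1 varied 4-fold, the chemokine gene Cxcl9, at 27, 61 and 14 reads. Irf7 stood at 109.6, 105 and 111 CPM and Mx1 at 32.6, 50.01 and 86.8 CPM.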

How the data were processed

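Messenger RNA of 6 mouse lung tumour samples was sequenced in read pairs, and the 3 Keap1 knockout samples are described here. The authors deposited whole-number read counts per Ensembl gene, without normalization. Alignment was with STAR to mm39, per the submitters' processing notes. Which program counted the reads, on which annotation, with which strand setting and with what rule for reads matching more than one gene is not given in the sources used here. Levels of near copies, and of genes that overlap on either strand, are therefore uncertain. The authors' table of their own comparison was not used, and no contrast between groups was made, so no test was run.

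Counts of the 3 libraries were scaled by TMM over these libraries alone (edgeR 4.0.16, limma 3.58.1, R 4.3.3), with factors of 1.02, 0.989 and 0.993. Log2 CPM used a prior count of 2. Genes with a mean of at least 1 CPM were kept, and a gene was called varying where its highest log2 CPM exceeded its lowest by at least 2, and was placed in 1 of 6 patterns by the library across the larger gap. The counting step was tested on simulated data. Symbols came from a name table that covered 52073 of 56980 identifiers, and merged exon lengths from GENCODE M21 (GRCm38), an earlier build than that of the files, so no gene coordinates are given beside the RefSeq promoter windows.

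The members, the 59 lists (822 of 828 genes matched) and the promoter motif were chosen with earlier results of these data known. Named genes are the 25 highest by CPM and per kilobase, the 8 of widest range in each pattern with a mean of at least 5 CPM, up to 4 by level and 2 by range in each list, and lineage and sex-linked genes set with the lists. Others were chosen after their values were seen: Abcc1, Adipoq, Akr1b8, Apoa1, Apob, Asns, Atoh1, C1qa, C1qb, Cat, Cbr1, Cd3e, Cd4, Cdh17, Cdh5, Chga, Cym, Cyp2f2, Epcam, F3, Fga, Fgb, Fos, G6pdx, Gata6, Gclm, Gsr, Gsta2, Gsta3, Gstp1, Gstp2, Gzmb, Hnf4a, Igf2, Krt5, Me1, Mthfd2, Myl2, Myl3, Ncr1, Nqo1, Peg3, Pgd, Prdx1, Prf1, Pyy, Rb1, Rbl2, Reg3g, S100g, Slc34a2, Slc7a11, Srxn1, Syp, Tg, Trp53, Trp63 and Ugdh. Alternatives were RLE scaling, library totals, TMM over all 6 libraries, other filters, a prior count of 0.5, thresholds of 2-fold and 8-fold, and each library left out in turn. Each SD is over 3 libraries, and sampling of reads limits the precision of low counts.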

Additional observations from a re-analysis of the deposited data

How the results depend on the processing

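Scaling changed little: with RLE factors, library totals or TMM over all 6 libraries, 506, 511 and 527 genes varied 4-fold, against 506. The filter on low counts moved the count most. A mean of at least 5 CPM gave 210 varying genes, a lowest pairwise Pearson correlation of 0.938 (0.954 as reported) and a median gene SD of 0.155 (0.189). With filterByExpr 1315 genes varied, at a median SD of 0.238. Without a filter 2211 genes varied, at a correlation of 0.972 and a median SD of 0.345. A prior count of 0.5 gave 545. Thresholds of 2-fold and 8-fold gave 2167 and 168. Without genes of the X and Y chromosomes and without immunoglobulin genes, a setting chosen after the data were seen, 441 varied. Leaving out 1 library gave between 126 and 364 varying genes, 126 without knockout 1 and 301 without knockout 3, correlations of 0.953 to 0.976 and median SDs of 0.141 to 0.174. The common coefficient of variation was 0.264, and 0.202 to 0.299 with 1 library left out. Of the 59 lists, 13 had a summed level that differed by at least 2-fold, and 4 without knockout 1, 9 without knockout 2 and 6 without knockout 3. With library totals 12 did, and the club cell list fell just below 2-fold. Of the 25 genes with the most reads, 13 were also among the 25 leading per kilobase, and between 22 and 25 kept their place with 1 library left out.

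For the named genes, 2656 of 2660 values kept their side of the 4-fold threshold under other scalings, filters and the prior count. A filter leaves the log2 range of a gene unchanged, so agreement under the filters was fixed in advance. Only the scalings and the prior count could move a value. Slc7a3, at a log2 range of 2.04, fell below the threshold with library totals (1.99881). With the prior count of 0.5, Insm1, Cd2 and Cldn15 passed it. With 1 library left out, 134 of 1140 lost the call, since 2 libraries cannot span more than 3. No paired analysis was possible because no groups were compared. At these depths, differences between libraries in genes such as Insm1 or Chga rest on a few reads, and the limit that 0 reads allows is given beside them.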
